A study of Mus musculus with 6 samples.

Results

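The Serpin family comprised 67 protein-coding genes and pseudogenes whose symbols start with Serpin among the 32401 genes of these kinds that GENCODE M21 places on mouse chromosomes 1 to 19 (60 coding genes and 7 pseudogenes). The family was chosen by the results of the same shPHF8 to shCTR contrast, because a region over the pseudogene Serpina3e-ps was already known to be among the widest that appeared only in shPHF8. Differences between the conditions are therefore described without a test. H3K9me3, trimethylated lysine 9 of histone H3, had been profiled with ChIP-seq, in which chromatin is immunoprecipitated and its DNA sequenced. The cells were neural stem cells (NSCs) grown from the fetal (E12.5) cerebral cortex of C57BL/6J mice. They had been infected with lentivirus carrying either a random control shRNA (shCTR, 2 libraries) or 1 shRNA against PHF8 (shPHF8, 2 libraries), a histone demethylase. Both conditions thus carried a lentiviral vector and differed in the hairpin, so that an effect of lower PHF8 and an off-target effect of this hairpin cannot be told apart. The labels do not say whether replicates were separate cultures, so the spread between them may be technical.

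Serpins are inhibitors of serine proteases that trap their target by a large change of shape, although some members have become hormone carriers or chaperones. The clade A serpins are mostly plasma proteins secreted by the liver, such as alpha-1-antitrypsin, and lie side by side in 1 large tandem array that expanded in rodents. The clade B serpins act mainly inside cells and form arrays of their own. H3K9me3 marks compact, silenced chromatin and is often spread over arrays of related genes that a tissue does not use.

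In the deposited lists each library has the positions of its broad peaks, without height or score. The 4 lists held between 44205 and 55344 autosomal peaks, and depth in reads was not part of them. Over the autosomes the covered length was higher in both shPHF8 libraries, with a ratio of the means of 1.32 (SD 0.101, n = 2 per condition), and median peak widths ran from 2400 to 4200 bp. A longer covered length in shPHF8 was therefore general, and each value of the family below stands beside it. Whether sequencing depth or the calling threshold moved with the condition was not tested. The knockdown cannot be checked on these lists, in which Phf8 itself had 0 covered bases in all 4 libraries. Of 8 marker genes of neural stem cells, 6 had a peak in at least 1 library, beside 48.4% of all genes. Pax6 had more covered bases in both shPHF8 libraries, 4 others (Nes, Fabp7, Hes5 and Slc1a3) had fewer, and Sox2 and Hes1 had none in any library. Over all genes 13.5% had more in both shPHF8 libraries and 5.32% fewer. A list of H3K9me3 peaks does not measure whether a marker is expressed.

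The family fell into 3 clusters and 11 single genes, a cluster being at least 3 members on 1 chromosome with less than 500 kb between neighbours. The Serpina cluster on chromosome 12 (chr12:103611786-104417329, mm10, 805544 bp) held 28 members, a Serpinb cluster on chromosome 1 (chr1:106858173-107613484) held 12, and a Serpinb cluster on chromosome 13 (chr13:32839092-34005794) held 16. Each span includes 3 kb beyond its first and last gene. The 4 parts of the family differed widely in H3K9me3. Of the Serpina cluster, peaks covered 21.1 and 16.9% in the shCTR libraries (replicate 1, then replicate 2, as throughout) and 53.6 and 49.8% in the shPHF8 libraries. On chromosome 13 the same shares of the Serpinb cluster were 3.05 and 2.37% in shCTR and 2.90 and 1.82% in shPHF8. The Serpinb cluster on chromosome 1 was almost bare, at 0.477 and 0.556% in shCTR and 1.17 and 0% in shPHF8. Windows of the single genes, each a gene with 3 kb on either side, were covered at 7.13 and 8.36% in shCTR and 7.76 and 6.99% in shPHF8. Only in the Serpina cluster did both shPHF8 libraries lie above both shCTR libraries.

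Over the Serpina cluster the covered length was 169800 and 135800 bp in shCTR and 432000 and 400800 bp in shPHF8. The means were 152800 ± 24042 bp and 416400 ± 22062 bp (SD, n = 2 each), a ratio of 2.73 (SD 0.452). For the Serpinb cluster on chromosome 13 the ratio was 0.870 (SD 0.322), for the single genes 0.952 (SD 0.128), and for the Serpinb cluster on chromosome 1 1.13 (SD 1.60), a value that rests on 1 or 2 peaks a library and on none in shPHF8 replicate 2. In these 3 parts the conditions overlapped. The rest of chromosome 12, outside the Serpina cluster, had a ratio of 1.30 (SD 0.0918), close to that of all autosomes. Both are averages over long sequence, and some single stretches of 800 kb had a larger ratio than the Serpina cluster. When each library was scaled to the same total covered length, the ratio of the Serpina cluster was 2.07.

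**Figure D1:**
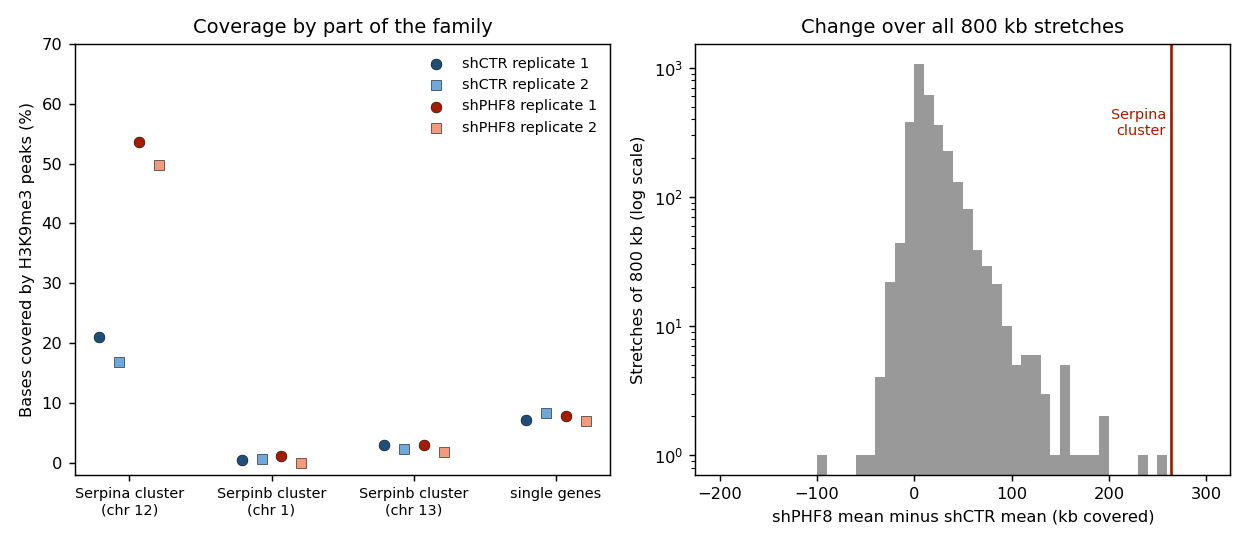
The left panel plots the percent of bases covered by H3K9me3 peaks in each of the 4 libraries for the 3 clusters and the single genes, each point being 1 library. The right panel counts (log scale) the autosomal stretches of 800 kb by the difference in covered kb between the shPHF8 and shCTR means, and the line marks the Serpina cluster, at 263600 bp, to the right of every stretch. That value includes the region over Serpina3e-ps by which the family was chosen.

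The rise of the Serpina cluster, 263600 bp between the condition means, was compared with equal stretches of the autosomes. Of 3069 stretches of 800 kb, 61.7% had a longer cover in both shPHF8 libraries than in either shCTR library, so that direction alone was common. The median difference was 10100 bp, and the largest, on chromosome 5 from position 130400001, was 256900 bp. These stretches have fixed bounds, whereas the cluster has bounds that follow its genes. Windows of the cluster's own width (805544 bp) were therefore moved along the autosomes in steps of 20 kb. Of 122381 windows, 5 had a difference at least as large, and all 5 overlapped at 1 place, the Serpina cluster itself (chr12:103580001-104465544, at most 265372 bp). The rise includes the region over Serpina3e-ps, by which the family was chosen, with 0 covered bases in shCTR and 13000 and 13400 in shPHF8. The lead of the cluster over the largest 800 kb stretch is smaller than the cover of that region. No rank was computed without the region. Since the family was also chosen with this contrast known, the rank is only a description of where the cluster lies. It is a rank by difference in bp, and the stretches were not ranked by ratio. A ratio as large as that of the cluster was not particular to it. The 800 kb stretch on chromosome 4 from position 144000001, with a difference of 230700 bp, had less cover in shCTR and a larger ratio.

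The peaks of the Serpina cluster were both more numerous and wider in shPHF8. There were 48 and 42 peaks in shCTR and 59 and 64 in shPHF8, with median widths of 2800 and 3000 bp against 6000 and 4600 bp. Over the autosomes the median widths were 2400 and 2400 bp in shCTR and 4200 and 2800 bp in shPHF8, so that wider peaks were general. The widest peak of the cluster measured 17400 and 8200 bp in shCTR and 32600 and 37800 bp in shPHF8. Of the bases covered in both shCTR libraries (83400 bp), 95.4% were covered in both shPHF8 libraries as well. A further 149600 bp were covered in both shPHF8 libraries and in neither shCTR library, whereas 800 bp showed the opposite. These new bases lay in 82 separate runs, of which 55 touched a shCTR peak and held 53.2% of the new bases. The new cover was thus divided between the edges of domains already present in at least 1 control library and stretches apart from them. No such base counts over the autosomes are given here, where the covered length was also higher in shPHF8 (ratio of the means 1.32). How far these shares are particular to the cluster was therefore not tested. Of the bases covered in either library of a condition, 37.5% were covered in both for shCTR and 64.9% for shPHF8. This share depends on how much is covered, so it does not compare the agreement of replicates between the conditions. The exons of the members were covered at 29.4 and 19.6% in shCTR and 61.1 and 54.3% in shPHF8, and the introns at 17.5 and 12.8% against 52.7 and 48.5%. Between the genes the cover was 22.5 and 19.3% in shCTR and 53.3 and 50.0% in shPHF8, so that the difference was found in all 3 kinds of sequence.

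**Figure D2:**
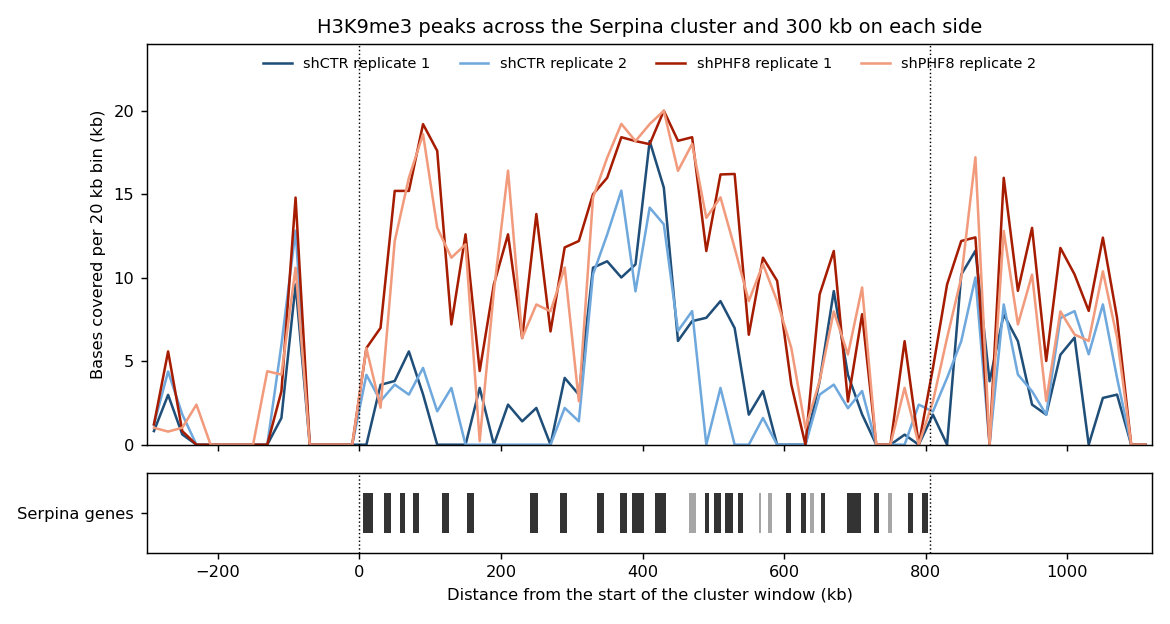
The upper panel plots the bases covered by peaks (kb) in each 20 kb bin against the distance from the start of the Serpina cluster (kb), 1 line per library, and the lower panel shows the gene bodies by RefSeq bounds (dark, coding; light, pseudogenes), with dotted lines at the ends of the cluster. In 30 of the 40 bins inside the cluster both shPHF8 lines lie above both shCTR lines.

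Seen in bins of 20 kb, both shPHF8 libraries exceeded both shCTR libraries in 30 of the 40 bins of the cluster, and the opposite was found in 0 bins. Over the autosomes 12.5% of 123129 such bins had more in both shPHF8 libraries. On the side of Ppp4r4, a regulatory subunit of a protein phosphatase, the change had a clear border. The 4 bins just before the cluster, 80 kb in all, had 0 covered bases in every library. On the other side the pattern ran on beyond the last Serpin gene. Of the 30 bins within 300 kb of the cluster, 10 had more cover in both shPHF8 libraries, and all 10 lay after Serpina3n, in the direction of Gsc and Dicer1. Gsc, a homeobox gene of the early embryo, had 7330 and 7130 covered bases in the shCTR libraries and 7330 and 5130 in the shPHF8 libraries, so its conditions overlapped. Within the array, the windows of Serpina3k and Serpina3l-ps, near its end, were bare in every library.

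Across the family, 24 of 67 members (35.8%) had more cover in both shPHF8 libraries than in either shCTR library, and 2 (2.99%) had less cover in both. Over all 32401 genes the same shares were 13.5% and 5.32%. The members with more were concentrated in the Serpina cluster, with 22 of 28 and 0 with fewer, and the median difference over the 28 was 5806 bp, beside 0 bp over all genes. Serpina3e-ps, by which the family was chosen, is counted among the 24 and among the 22. Of the 39 members elsewhere, 2 had more and 2 had fewer, 5.13% each. Among the other genes of chromosome 12 the share with more was 15.7% (216 of 1374). A pair of other gene families that include arrays gave 32 of 130 (24.6%) for the Cyp genes and 15 of 234 (6.41%) for the Vmn2r genes. Both were taken whole, by symbol, and their arrays were not counted apart. Their shares therefore stand beside the 35.8% of all Serpin members, and not beside the Serpina cluster alone. Windows of neighbouring members can share a peak, and those of Serpina1b with Serpina1d and of Serpina3m with Serpina3k and Serpina3l-ps overlap, so the 22 are not 22 separate events. With gene bounds from RefSeq, where Serpina1b and Serpina3m are much shorter, 21 of 28 had more.

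A peak lay within the window of 35 of the 67 members (52.2%) in at least 1 library, near the 48.4% of all genes. In all 4 libraries a peak was present for 14 members (20.9%), against 27.6% of all genes, and 11 of these 14 were in the Serpina cluster. The number was 23 when shCTR replicate 2 was left out. For 2 members, Serpina3e-ps and Serpina3f, a peak was present in both shPHF8 libraries and in neither shCTR library, a pattern found in 1.69% of all genes. The opposite held for 2 others, Serpinh1 and Serpinb9e, beside 1.73% of all genes. Of the first pair, Serpina3e-ps was the member by which the family was chosen, so its pattern was known beforehand. Serpina3f had only 57 covered bases in shPHF8 replicate 1. Within the family, a peak in at least 1 library was found for 25 of 28 members of the Serpina cluster and for 10 of the 39 others. Start sites followed the same division. In the Serpina cluster 9 and 6 of 28 start sites lay in a peak in shCTR and 19 and 17 in shPHF8, and outside it 0 start sites did in any library. Of all genes, 7.33 and 7.73% had their start site in a peak in shCTR and 9.02 and 8.59% in shPHF8, so that a smaller difference in the same direction was general.

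**Figure D3:**
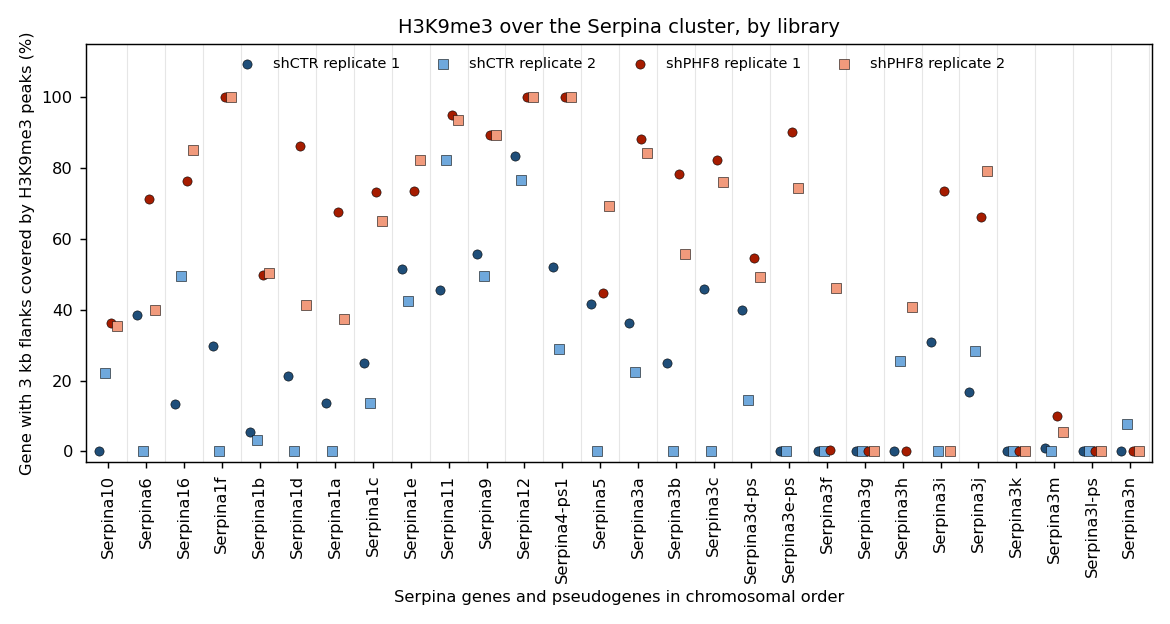
The percent of each gene, with 3 kb on either side, that H3K9me3 peaks covered is plotted for the 28 Serpina members in chromosomal order, 1 point per library (circles, replicate 1; squares, replicate 2). From Serpina10 to Serpina3f every member has both shPHF8 points above both shCTR points, and of the members from Serpina3g on only Serpina3j and Serpina3m do.

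The first members of the array, in chromosomal order, encode proteins of unlike function. Serpina10, an inhibitor that acts with protein Z on factor Xa, had 0 and 5000 covered bases in shCTR and 8200 and 8000 in shPHF8. For Serpina6, the corticosteroid-binding globulin, a carrier without inhibitory activity, the values were 6400 and 0 in shCTR and 11812 and 6612 in shPHF8. In the latter gene shPHF8 replicate 2 exceeded shCTR replicate 1 by little. Serpina16 had 1800 and 6600 in shCTR, and 10193 and 11332 in shPHF8. The next gene, Serpina1f, had 4000 and 0 covered bases in shCTR, and its whole window of 13486 bp was covered in both shPHF8 libraries. By share of the window this was the largest difference of all members. It lay in a merged region of 37800 bp (chr12:103681601-103719400) with 6800 and 4600 covered bases in shCTR and 35000 and 31200 in shPHF8.

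The genes Serpina1a to Serpina1e encode the alpha-1-antitrypsins of the mouse and are near copies of each other. Serpina1a had 2200 and 0 covered bases in shCTR and 10812 and 5962 in shPHF8. Serpina1c had 4000 and 2200 in shCTR and 11675 and 10362 in shPHF8. In Serpina1d the numbers were 3400 and 0 against 13807 and 6607. All of these had no overlap between conditions. Serpina1e, the last of the copies, had more cover in shCTR than the other copies, with 9270 and 7645 in shCTR against 13245 and 14845 in shPHF8. The largest difference of all members, 49609 bp, belonged to Serpina1b, with 5800 and 3400 against 54018 and 54400 covered bases. GENCODE gives Serpina1b a span of 102218 bp that runs past Serpina1d, and over its RefSeq bounds the window had 0 and 3400 covered bases in shCTR and 13245 and 12800 in shPHF8. Reads from near copies can be placed in the wrong copy or left out, and in the windows of Serpina1a to Serpina1e between 30.8 and 49.9% of 50-base sequences, the read length of the study, occur more than once in the genome. The part of such reads in these values was not tested.

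Members in the middle of the array, from Serpina11 to Serpina4-ps1, carried the mark in all 4 libraries. Serpina12, or vaspin, an adipose-derived inhibitor, had the most covered bases of the Serpina cluster in both shCTR libraries, 18075 and 16632 of 21675 bp. It was covered throughout in both shPHF8 libraries. Serpina11 had 7157 and 12915 covered bases in shCTR and 14915 and 14715 in shPHF8. For Serpina9, or centerin, a serpin of germinal centre B cells, the numbers were 13955 and 12355 against 22355 and 22355. Serpina9 and Serpina12 shared the widest merged region of the cluster, 71600 bp (chr12:103995801-104067400), with 49200 and 41200 covered bases in shCTR and 67800 and 67600 in shPHF8. This region was thus mostly covered in shCTR as well. The pseudogene Serpina4-ps1 had 6276 and 3476 in shCTR and all 12076 in both shPHF8 libraries. Serpina5, the protein C inhibitor, had 4600 and 0 in shCTR and 4937 and 7625 in shPHF8, so that shCTR replicate 1 and shPHF8 replicate 1 were nearly equal.

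The Serpina3 genes are the mouse counterparts of human alpha-1-antichymotrypsin, an inhibitor of cathepsin G, and they divided into 2 sections. Serpina3a had 5496 and 3400 covered bases in shCTR and 13373 and 12773 in shPHF8. Serpina3b had 4405 and 0 in shCTR and 13750 and 9805 in shPHF8. Serpina3c had 6200 and 0 against 11089 and 10270. The pseudogene Serpina3d-ps had 4400 and 1600 against 6000 and 5400. In this first section, shCTR replicate 2 was the lowest library for each of the 4. The second section, from Serpina3g to Serpina3n, was mixed. Serpina3g, Serpina3k and Serpina3l-ps had no peak in any library. Serpina3h had peaks only in both replicates 2 (3000 and 4800 bp) and Serpina3i only in both replicates 1 (3800 and 9000 bp). Serpina3j had 2048 and 3448 in shCTR against 8048 and 9648 in shPHF8, whereas Serpina3m, whose GENCODE span includes Serpina3k and Serpina3l-ps, had 600 and 0 against 6200 and 3400. Over the shorter RefSeq span of Serpina3m the conditions overlapped, with 0 covered bases in 3 libraries and 1644 in shPHF8 replicate 2. Serpina3n, which is known from reactive astrocytes and inhibits granzyme B, had 0 and 1072 bases in shCTR and none in shPHF8.

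Serpina3e-ps, a pseudogene of the same group, had 0 covered bases in both shCTR libraries and 8484 and 7010 of 9410 bp in shPHF8. These values were among those that chose the family. The merged region over it measured 16600 bp (chr12:104182601-104199200) and had 13000 and 13400 covered bases in the shPHF8 libraries. In shCTR the nearest peaks lay 14517 and 15517 bp from the gene. Of the coding genes within 50 kb, Serpina3b and Serpina3c also had more cover in both shPHF8 libraries. Serpina3f, on the other side, had 0 and 0 in shCTR and 57 and 5800 in shPHF8, so that its call rested on 57 bp in shPHF8 replicate 1, and Serpina3g was bare. The cluster had 57 merged regions, of which 11 were present in both shPHF8 libraries and in neither shCTR library, 1 showed the opposite and 15 were present in all 4. Of the 70705 merged regions of the autosomes these patterns made up 4.29%, 5% and 38%. Of those 11, the region over Serpina3e-ps was the widest, and 7 overlapped Serpina1b, Serpina1c or Serpina1d by their GENCODE bounds.

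**Figure D4:**
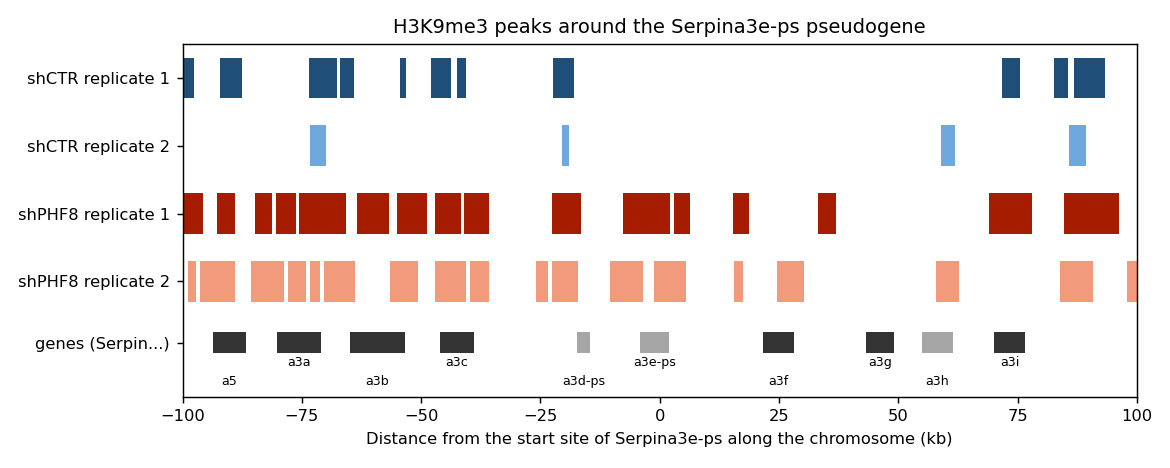
H3K9me3 peaks of the 4 libraries are drawn as boxes against the distance from the GENCODE start site of Serpina3e-ps (kb), with the gene bodies by RefSeq bounds below (dark, coding; light, pseudogenes; names without the prefix Serpin). At 0 kb only the 2 shPHF8 libraries have peaks, whereas peaks over Serpina3d-ps, at about 20 kb to the left, are present in all 4 libraries.

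To show how the mark lay on promoter sequence, the 250 bases upstream of RefSeq start sites were examined, which were given for 52 of the 67 members (60 start sites, GRCm38.p6, the patch release of mm10). In the Serpina cluster 8 and 5 of 20 such promoters were wholly covered in shCTR and 13 and 12 in shPHF8, and 12 and 14 against 5 and 7 were bare. Among these 20, Serpina11 and Serpina3f are counted with more than 1 start site each, and their promoters overlap. The shares of all 32851 promoters that were covered or bare are not given here, so these counts stand without a background. Of the 40 promoters outside the cluster, 1 had any cover, that of an inner start site of Serpinb6a in shCTR replicate 1. The promoters of Serpina1f (chr12:103695530-103695779, minus strand), Serpina1a (chr12:103863620-103863869, minus strand) and Serpina3c (chr12:104153873-104154122, minus strand) were wholly covered in both shPHF8 libraries and bare in both shCTR libraries, and are printed for that change. That of Serpina12 (chr12:104044444-104044693, minus strand) is printed as one wholly covered in all 4 libraries, and that of Serpina3n (chr12:104406458-104406707, plus strand) as one bare in all 4. The stretch before Serpina3e-ps (chr12:104192927-104193176, minus strand) was taken from the genome and the GENCODE start site, and was covered over 250 bases in both shPHF8 libraries and 0 in shCTR. The RefSeq bounds of this pseudogene (chr12:104188794-104194860) enclose the stretch. By RefSeq it thus lies within the pseudogene and is not a promoter. Sequences run 5′ to 3′ and CG dinucleotides are in capitals.
Serpina1f: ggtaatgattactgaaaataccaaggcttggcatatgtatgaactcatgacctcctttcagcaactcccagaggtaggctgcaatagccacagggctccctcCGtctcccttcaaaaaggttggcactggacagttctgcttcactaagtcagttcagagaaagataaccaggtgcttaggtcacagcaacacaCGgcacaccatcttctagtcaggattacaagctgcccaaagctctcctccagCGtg
Serpina1a: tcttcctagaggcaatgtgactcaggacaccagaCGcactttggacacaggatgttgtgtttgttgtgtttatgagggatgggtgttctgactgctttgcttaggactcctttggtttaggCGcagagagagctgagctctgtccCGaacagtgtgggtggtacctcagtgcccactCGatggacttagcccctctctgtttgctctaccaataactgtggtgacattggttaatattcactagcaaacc
Serpina3c: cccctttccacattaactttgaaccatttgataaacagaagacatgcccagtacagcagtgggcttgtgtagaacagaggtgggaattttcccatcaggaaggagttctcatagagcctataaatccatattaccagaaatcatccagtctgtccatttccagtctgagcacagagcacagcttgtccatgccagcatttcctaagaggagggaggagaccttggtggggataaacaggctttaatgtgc
Serpina3e-ps: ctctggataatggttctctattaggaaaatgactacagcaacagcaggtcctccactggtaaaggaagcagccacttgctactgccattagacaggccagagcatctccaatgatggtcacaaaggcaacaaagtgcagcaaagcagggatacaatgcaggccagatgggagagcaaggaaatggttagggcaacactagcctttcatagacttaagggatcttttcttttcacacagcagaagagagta
Serpina12: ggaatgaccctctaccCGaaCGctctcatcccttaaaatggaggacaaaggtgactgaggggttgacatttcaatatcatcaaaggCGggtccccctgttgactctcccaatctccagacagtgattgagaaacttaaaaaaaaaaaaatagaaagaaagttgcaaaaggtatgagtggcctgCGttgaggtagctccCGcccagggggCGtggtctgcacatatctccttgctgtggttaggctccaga
Serpina3n: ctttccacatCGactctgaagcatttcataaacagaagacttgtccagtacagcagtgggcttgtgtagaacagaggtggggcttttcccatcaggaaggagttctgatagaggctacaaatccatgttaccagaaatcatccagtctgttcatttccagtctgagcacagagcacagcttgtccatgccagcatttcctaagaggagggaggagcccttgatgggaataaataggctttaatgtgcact

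None of the printed sequences, covered or not, had more CG dinucleotides than the median of all promoters. Serpina1f had 3, Serpina1a 4 and Serpina12 6, while Serpina3c and Serpina3e-ps had 0 and Serpina3n had 1. The median was 3 in the Serpina cluster, 2 in the other members and 6 over all 32851 promoters. The promoters of Serpina3c and Serpina3n were identical at 90.5% of 253 aligned positions, and yet the first was covered in both shPHF8 libraries and the second in none. By the same alignment Serpina1a matched Serpina1c at 91.4%, Serpina1d at 89.4% and Serpina1b at 88.0% of positions, but Serpina1f at 48.6%. Among the copies, the promoter of Serpina1b was covered in shCTR replicate 2 and in both shPHF8 libraries, and that of Serpina1d in both replicates 1 and neither replicate 2. The letters TATAAA, searched on both strands, were present in 4 of the 20 Serpina promoters, among them that of Serpina3c, in 11 of the 40 other member promoters, and in 12.4% of all promoters.

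**Figure D5:**
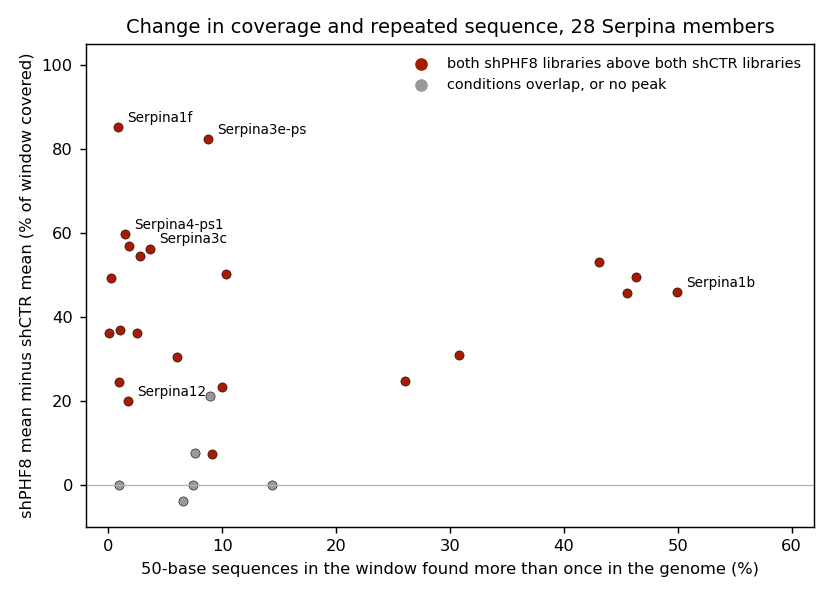
For the 28 Serpina members, the difference between the shPHF8 and shCTR means (percent of the window covered) is plotted against the percent of 50-base sequences in the window that occur more than once in the genome. Members with both shPHF8 libraries above both shCTR libraries (red) occur at low and at high shares, from Serpina6 at 0.0663% to Serpina1b at 49.9%.

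Repeated sequence was measured over the whole cluster, since reads of 50 bases cannot be placed where the sequence has a second copy. In the Serpina cluster 19.7% of 50-base sequences occur more than once in the genome, against 14.4% in the Serpinb cluster on chromosome 1 and 30.0% in that on chromosome 13. Among bases newly covered in both shPHF8 libraries the share was 15.4%, among bases covered in both shCTR libraries 4.65%, and among bases covered in no library 29.4%. Over sequences that occur once the ratio of covered bases was 2.54 (SD 0.375), and over repeated ones it was 5.33 (SD 2.16), with few covered bases in shCTR. The difference between conditions was thus present where the sequence is unique. The windows of Serpina1f, Serpina12, Serpina16, Serpina3a, Serpina3b and Serpina3c, all with more cover in both shPHF8 libraries, had at most 3.70% of repeated 50-base sequences. The Serpina cluster also had fewer interspersed and simple repeats than the others, with 26.7% of bases soft-masked against 43.3% on chromosome 1, 47.1% on chromosome 13 and 33.5% over the autosomes. Its GC content was 45.6%, against 39.1% and 40.7% in the Serpinb clusters and 41.9% over the autosomes.

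The Serpinb clusters encode mostly intracellular inhibitors. On chromosome 1, all 12 members had no peak within their windows in any library, among them Serpinb5 (maspin), Serpinb2, the plasminogen activator inhibitor of macrophages, and the Serpinb3 genes of squamous epithelia. On chromosome 13, 10 of 16 members were bare, including Serpinb1a, an inhibitor of neutrophil proteases. The other 6 had small and scattered peaks. Serpinb6c had a peak in all 4 libraries, downstream of the gene, with 985 and 1985 covered bases in shCTR and 2185 and 1385 in shPHF8. Serpinb9, the main inhibitor of granzyme B inside cells, had 2400 covered bases in shCTR replicate 1 and 0 elsewhere, and Serpinb6b had 3200 in shPHF8 replicate 2 and 0 elsewhere. Serpinb9b had peaks only in both replicates 1 (2800 and 4684 bp). Serpinb9e had 1989 and 1189 bases in shCTR and 0 in shPHF8, from peaks more than 1000 bp upstream of its start site. Serpinb6a had 3800 and 1600 in shCTR and 0 and 2000 in shPHF8, in different places. Of the 18 merged regions in this cluster, 4 were present in all 4 libraries, 0 in both shPHF8 libraries alone and 3 in both shCTR libraries alone, beside the shares of 38%, 4.29% and 5% over the autosomes.

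Among the single genes, Serpine2 had the most bases covered by H3K9me3 peaks. It encodes protease nexin 1, a thrombin inhibitor made by glia and neural progenitors. Its window of 72984 bp had 18580 and 20980 covered bases in shCTR and 18800 and 12800 in shPHF8, and the conditions overlapped. Most of this cover lay in introns, between 8980 and 33179 bp past the start site, and the start site itself was bare in all libraries. A smaller merged region upstream of the gene (chr1:79863001-79865600) had 2400 and 2000 covered bases in shCTR and 1000 and 0 in shPHF8. Serpinf2, which encodes the plasmin inhibitor alpha-2-antiplasmin, had 3600 and 5869 in shCTR and 7069 and 7469 in shPHF8. Its peaks lay in the body of the gene and beyond its 3′ end. Serpinh1, a collagen chaperone of the endoplasmic reticulum, had 1600 and 3600 in shCTR and 0 in both shPHF8 libraries, within the gene body. Another 7 had no peak in their windows in any library. They were Serpini1 (neuroserpin, the inhibitor of tissue plasminogen activator in neurons), Serpini2, Serpinf1 (pigment epithelium-derived factor), Serping1 (C1 inhibitor), Serpinc1 (antithrombin), Serpind1 (heparin cofactor) and Serpine3. Peaks near Serpinf1 began 3100 to 6100 bp from the gene.

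A list of 18 proteases that serpins inhibit, with receptors and cofactors of the same systems, was examined in the same way. Of these, 11 had a peak in at least 1 library, 4 had more covered bases in both shPHF8 libraries and 1 had fewer, beside 48.4%, 13.5% and 5.32% of all genes. Those with more were Plg (plasminogen), Ctsg (cathepsin G), Plaur (the urokinase receptor) and Lrp1, a receptor that clears serpin complexes. Plg had 12378 and 12785 in shCTR and 14985 and 15585 in shPHF8. The gene with fewer was Plat, the tissue plasminogen activator, with 10274 and 8674 in shCTR and 318 and 5118 in shPHF8. No peak was found over Plau, F2, F9, C1s1, C1ra, Prss1 and Vtn in any library.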

How the data were processed

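The authors made the ChIP-seq libraries from shCTR and shPHF8 NSCs and sequenced single-end reads of 50 bases. Per the labels, the processing used Bowtie2 2.3.5.1, SAMtools 1.9 and deepTools with mm10, whereas the paper's methods name SOAPaligner/SOAP2 for alignment and SICER2 for broad peaks. The window, gap, threshold and use of the input are not given in the sources used here. The deposited values are peak positions, 1 list per library, in a unit of their own (no counts, score or fold), so a change in height within a peak is not seen. The 2 inputs had no list among the files used. The labels and the paper give different cell numbers per immunoprecipitation.

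Starts were read as 0-based and ends as inclusive, and positions are printed 1-based. Covered bases were summed per library over GENCODE M21 genes with 3 kb on each side, clusters, 20 kb bins and 800 kb stretches. "More" or "fewer" means that both libraries of a condition exceeded both of the other. No test was made: the members and lists were chosen with earlier results of these data known, and 2 libraries against 2 cannot go below p = 0.333 in an exact permutation test. Ratios carry an SD propagated from both conditions. Promoters came from RefSeq (GRCm38.p6). A 50-base sequence was called repeated when it occurred more than once in the genome on either strand. Serpina7, on chromosome X, lies outside the rule.

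Members were named with values where the conditions did not overlap and the means differed by at least 2000 bp (up to 20), where all 4 libraries had a peak (up to 15), where coding genes lay within 50 kb of Serpina3e-ps, or as single genes of known role (Serpini1, Serpine2, Serpinf1, Serping1, Serpinh1). The rule named 31 members, of which 1 is not reported here, and other members named in the text were added after their values were seen. Alternatives were other flanks, coding genes only, wider peaks, a gap of 1000 bases, scaling to the same total, joining below 200 kb, a replicate block, each library left out and, chosen after seeing the data, RefSeq bounds. Python 3.11.15 with numpy 2.4.6 was used, and coverage and calls were tested on simulated data against bedtools 2.31.1.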

Additional observations from a re-analysis of the deposited data

How the results depend on the processing

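Of 65 values recomputed under the alternatives, 9 moved by more than 1.5 times (counts) or more than 1 SD (ratios), the SD being wide on chromosome 1. The number of members with more covered bases in both shPHF8 libraries (24) ran from 17, with libraries scaled to the same total, to 27, without shPHF8 replicate 2. For the Serpina cluster alone it was recounted with scaling, wider peaks, no flanks, RefSeq bounds and each library left out, and ran from 17 of 28 (scaled) to 23. In these settings 0 members of the cluster had fewer, except 1 without shCTR replicate 1. The shares of all genes under these settings are not given here, and the 13.5% of all genes with more applies to the main, unscaled setting. The small number with fewer (2) was 1 without flanks, 4 with 10 kb flanks and 1 with peaks at least 2000 bp wide, and 3 to 4 with 1 library left out. The number with a peak in all 4 libraries (14) was 24 with 10 kb flanks and 14 to 23 with 1 library left out, the 23 being without shCTR replicate 2, which has the fewest members with a peak. The ratio of the Serpina cluster was 2.07 when scaled, 2.99 with peaks at least 2000 bp wide and 2.45 to 3.07 with 1 library left out. The ratio of the single genes was 0.724 when scaled and 0.882 to 1.03 with 1 library left out. On chromosome 13 the ratio ran from 0.671 to 1.07 with 1 library left out, and on chromosome 1 from 0 to 2.26. The causes of these moves were not tested.

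Same-numbered libraries share only a number. With the replicate block the ratios were 2.74, 0.854 and 0.954 for the Serpina cluster, the chromosome 13 cluster and the single genes, and the numbers of members with more and fewer were 24 and 2. No block ratio could be had for chromosome 1, where a library was at 0. Deviations of replicates 1 from their condition means correlated at 0.33 over the 67 members, as a hint only. Peak lists without read counts limit these values: a region under the threshold in a shallower library counts as bare.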
